A study of Mus musculus with 16 samples.

Results

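Fos, Fosb, Fosl1, Fosl2, Jun, Junb, Jund, Atf3, Egr1 and Egr2 are 10 transcription factor genes of the AP-1 and immediate early group, and their levels were followed in mouse dorsal skin before and after topical treatment. The genes were chosen by name, and each was read from the probe set whose platform annotation gives that symbol alone and whose mean over all 16 arrays was highest. They were 10 of 18194 genes with a probe set of 1 symbol, and all 10 were among the 12087 genes that passed a filter on low values (log2 above 4 in at least 2 arrays). The mean over all arrays was the measured value used to pick the probe sets, and the day-5 rise of Fosl1 was known from earlier results of the same arrays, so it is described here without a test.

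AP-1 is a dimer of basic leucine zipper proteins, in which a Jun protein (Jun, Junb or Jund) pairs with another Jun, with a Fos protein (Fos, Fosb, Fosl1 or Fosl2) or with an ATF protein such as Atf3. Many of these genes, and the zinc finger factors Egr1 and Egr2, belong to the immediate early genes: MAP kinases act on factors already bound at their promoters, and transcription starts within minutes without new protein synthesis. In skin, AP-1 proteins act in keratinocyte differentiation, in responses to ultraviolet light and in wound repair.

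Whole-skin biopsies came from female C57/B6 mice, an inbred strain, aged 8.5 weeks at the first biopsy. The day-5 groups had received tofacitinib (mice 7, 8 and 9), ruxolitinib (mice 4 and 6) or DMSO, the vehicle (mice 2 and 3), once a day on the skin for 4 days, and the day-0 group was the same mice and mice 1 and 5 before treatment (n = 9). Tofacitinib and ruxolitinib inhibit Janus kinases, which carry cytokine signals to STAT transcription factors. No dose is stated in the sources used here. There was no untreated group at day 5, so the day, the daily application and the earlier biopsy cannot be told apart in any comparison with day 0. The titles write C57/B7. For the day-5 array of mouse 7 the description speaks of ruxolitinib, but title, source and treatment speak of tofacitinib, which was used.

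All values are log2 GCRMA values (GCRMA turns probe intensities into 1 background-corrected level per probe set), so 1 unit is a doubling, and levels are compared within a probe set only. As a measure of background, the 27 control probe sets with no target in the sample had values up to 2.43, with 1.70 as their median. The small day-5 groups, of 2 or 3 arrays, limited the precision. The mean of 5 keratinocyte markers lay between 11.96 and 12.54 at day 5 and between 12.67 and 12.98 at day 0, and that of 3 T cell markers lay between 3.44 and 4.42 at day 5 and between 6.47 and 8.12 at day 0. The mean of 4 endothelial markers was 4.16 to 5.34 at day 5 and 2.53 to 3.73 at day 0, that of 4 fibroblast markers 8.85 to 9.71 at day 5 and 6.02 to 8.12 at day 0, and that of 6 skeletal muscle markers 13.30 to 13.54 at day 5 and 12.47 to 13.22 at day 0. Keratinocyte markers were thus far above background on every array, and so were muscle markers. None of these 5 ranges overlapped between the days, so the day and the tissue makeup cannot be told apart in the comparisons with day 0. In whole skin, fewer cells of a type and less RNA per cell cannot be told apart.

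Before the results by group, 1 array has to be named, because it stood apart in these genes. In the day-0 array of mouse 7, Fosb, Fosl1 and Atf3 held ranks 1, 2 and 3 of 12087 genes by their excess over the median of the other 8 day-0 arrays, and Fos held rank 7. Fosb had a log2 level of 9.61 in that array against 2.82 to 6.23 in the other 8, and Fosl1 had 8.47 against 2.56 to 5.32. Atf3 had 10.09 against 4.64 to 7.50. Ranks 4, 5 and 6 went to Nr4a3, Apold1 and Nr4a1, of which Nr4a3 and Nr4a1 encode orphan nuclear receptors that are immediate early genes as well. Jund and Fosl2 were near the other arrays there, at ranks 2940 and 2963. Comparisons with day 0 are therefore also given without this array for Fosl1, Fos, Fosb and Atf3, and with tofacitinib for Egr2 and Junb. The calls of Jun, Junb, Jund, Fosl2 and Egr1 against day 0 did not change without it.

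Promoter stretches are shown for Fos, Jun, Atf3 and Junb, because letters of the sites known to bind ATF, CREB and AP-1 dimers lie in them and because the first 3 passed between DMSO and day 0 while Junb did not. Jund and Egr2 also passed there and are not printed. The Jund stretch held none of the motifs searched, and stretches of Egr2 held some. For Fosl1 no stretch was available. Each stretch is the 150 bases before the transcription start in RefSeq annotation of GRCm38.p6, written 5′ to 3′ on the gene's own strand with motif matches in capitals.
Fos (chr12:85473740-85473889, plus strand): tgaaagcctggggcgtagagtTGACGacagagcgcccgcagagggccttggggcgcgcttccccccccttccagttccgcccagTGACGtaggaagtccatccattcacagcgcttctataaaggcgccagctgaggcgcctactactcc
Jun (chr4:95052223-95052372, minus strand): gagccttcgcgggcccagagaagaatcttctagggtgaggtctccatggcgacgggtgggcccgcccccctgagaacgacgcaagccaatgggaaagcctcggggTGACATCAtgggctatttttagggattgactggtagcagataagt
Atf3 (chr1:191183334-191183483, minus strand): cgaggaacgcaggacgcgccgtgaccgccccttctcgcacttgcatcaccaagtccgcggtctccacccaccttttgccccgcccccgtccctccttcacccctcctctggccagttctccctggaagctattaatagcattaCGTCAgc
Junb (chr8:84978749-84978898, minus strand): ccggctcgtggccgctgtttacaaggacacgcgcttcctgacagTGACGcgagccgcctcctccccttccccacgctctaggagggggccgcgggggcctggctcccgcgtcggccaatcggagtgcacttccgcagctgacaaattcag

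Searched on both strands were the ATF and CREB site TGACNTCA, the AP-1 site in the form TGANTCA, the half-site written TGACG, the Egr site GCGNGGGCG and the CArG box bound by Srf. The half-site lies inside the first of these where N is G. The capitals in Fos are 2 matches to TGACG, those in Atf3 and Junb 1 match each (in Atf3 on the other strand), and those in Jun a match to TGACNTCA that begins 45 bases before the start. Stretches of the same length before 32851 annotated starts held TGACG in 13.3% and TGACNTCA in 5.7% of cases. Fosl1 and Egr1 were not searched. Of the 8 members searched, 5 had TGACG in at least 1 stretch (Fos, Fosb, Junb, Atf3 and Egr2, the last with several annotated starts), 1 had TGACNTCA and 0 had TGANTCA, which 4.24% of all stretches held. The Egr site was found in 2 of the 8 (Fosb and Fosl2), beside 3.81% of all stretches, and the CArG box in 1 (Egr2), beside 0.916%. These shares are per stretch, whereas Egr2 was counted over several stretches. A match of letters describes the sequence and says nothing about binding.

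Among the Fos proteins, Fosl1 (Fra-1, a Fos protein without the transactivation domain of Fos) was far higher at day 5 in every treatment group. Its log2 level was 10.60, 8.82 and 8.70 with tofacitinib (mice 7, 8 and 9), 10.45 and 9.76 with ruxolitinib and 9.68 and 9.34 with DMSO, whereas the 9 day-0 arrays ran from 2.56 to 8.47 with a median of 3.72. All 7 day-5 arrays lay above all 9 day-0 arrays, including that of mouse 7. As background, 12.9%, 17.1% and 21.6% of all genes had every tofacitinib, ruxolitinib or DMSO array above every day-0 array. The fitted difference from day 0 was 4.95 ± 0.86 with tofacitinib (SE, 3 against 9 arrays), 5.98 ± 1.02 with ruxolitinib (2 against 9) and 5.29 ± 1.02 with DMSO (2 against 9). Without the day-0 array of mouse 7 the differences were 5.53, 6.47 and 5.74. Within the 7 mice sampled on both days, Fosl1 was higher at day 5 in all 7, by a median of 5.15 and a range of 2.13 in mouse 7 to 7.89 in mouse 4. The second probe set of Fosl1 was also higher at day 5, by far less. It read 3.19 to 4.97 at day 5 and 2.34 to 3.51 at day 0, where several arrays were at or under the highest control value and mouse 7 alone reached the day-5 range, so its differences of 1.33, 1.40 and 1.10 with tofacitinib, ruxolitinib and DMSO are of uncertain size.

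**Figure D1:**
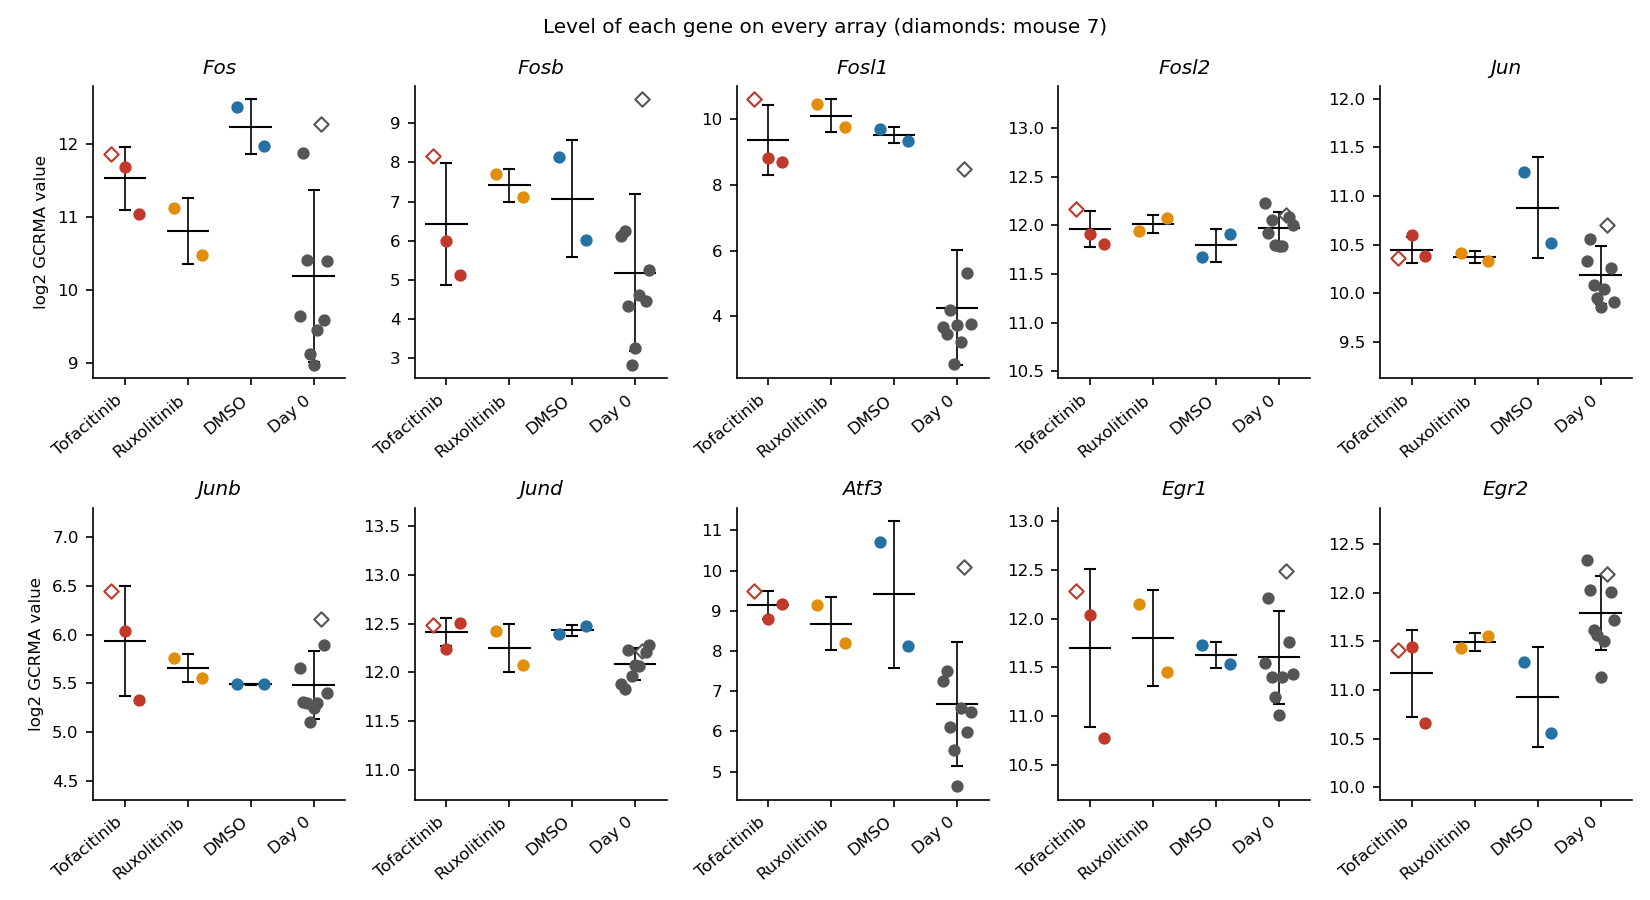
Log2 GCRMA level (vertical axis) of each of the 10 genes on every array, by group; points are arrays, open diamonds mark mouse 7, bars are group means and whiskers SD (n = 3, 2, 2 and 9). Fosl1 is the gene whose 7 day-5 arrays all lie above all 9 day-0 arrays, and the day-0 array of mouse 7 lies well above the other day-0 arrays in Fosb, Fosl1 and Atf3.

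Fos itself, the prototype of the family, had log2 levels of 11.86, 11.68 and 11.03 with tofacitinib, 11.12 and 10.48 with ruxolitinib and 12.50 and 11.97 with DMSO. At day 0 it ran from 8.97 to 12.27 with a median of 9.63, and mice 2 and 7 (11.87 and 12.27) reached the day-5 levels. With DMSO it rose by 1.95 ± 0.68 over day 0 (limma, adjusted p = 0.0275), a 3.87-fold difference. With tofacitinib the difference was 1.28 ± 0.58 (adjusted p = 0.0776) and with ruxolitinib 0.70 ± 0.68 (adjusted p = 0.441). Without the day-0 array of mouse 7 the tofacitinib difference became 1.59 and passed (adjusted p = 0.0140), beside 0.96 with ruxolitinib and 2.13 with DMSO. With the mouse as a fixed block, which compares each day-5 array with its own day-0 array, the DMSO difference was 1.10 and did not pass (adjusted p = 0.169). Fos was higher at day 5 in 6 of 7 mice, by up to 2.10, and lower by 0.41 in mouse 7.

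Fosb, which like Fos is induced within minutes in many cells, varied most among the day-0 arrays of the 10 genes. Its levels were 8.16, 5.99 and 5.13 with tofacitinib, 7.71 and 7.12 with ruxolitinib and 8.13 and 6.02 with DMSO, against 2.82 to 9.61 at day 0 (median 4.60). The groups overlapped, and no difference from day 0 passed: 1.12 ± 1.04 with tofacitinib (adjusted p = 0.385), 2.38 ± 1.23 with ruxolitinib (adjusted p = 0.145) and 1.88 ± 1.23 with DMSO (adjusted p = 0.212). Without the day-0 array of mouse 7 the ruxolitinib and DMSO differences were 2.89 and 2.33 and passed (adjusted p = 0.0205 and 0.0378), while the tofacitinib difference was 1.73 (adjusted p = 0.0672). A fixed mouse block gave -0.01 with tofacitinib (adjusted p = 0.990), 3.70 with ruxolitinib (adjusted p = 0.0270) and 1.79 with DMSO (adjusted p = 0.104). Fosb was higher at day 5 in 5 of 7 mice. In mouse 7, of the tofacitinib group and high at day 0, the within-mouse difference was -1.46.

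Fosl2 (Fra-2, the other Fos protein without that domain) had nearly flat levels. They were 12.17, 11.91 and 11.80 with tofacitinib, 11.95 and 12.08 with ruxolitinib and 11.68 and 11.91 with DMSO, against 11.78 to 12.23 at day 0. The differences from day 0 were -0.02 ± 0.12, 0.05 ± 0.14 and -0.18 ± 0.14 with tofacitinib, ruxolitinib and DMSO, and none passed (adjusted p = 0.877, 0.781 and 0.288). The 95% intervals stayed between -0.48 and 0.35. The second probe set of Fosl2 was much dimmer and did not follow it. It read 3.45 to 4.53 with tofacitinib, 4.89 and 3.38 with ruxolitinib, 3.58 and 3.01 with DMSO and 2.80 to 3.60 at day 0. The difference from day 0 with tofacitinib was 0.73 and passed (adjusted p = 0.0363). Those with ruxolitinib and DMSO were 0.83 and -0.02 and did not pass (adjusted p = 0.0570 and 0.970).

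**Figure D2:**
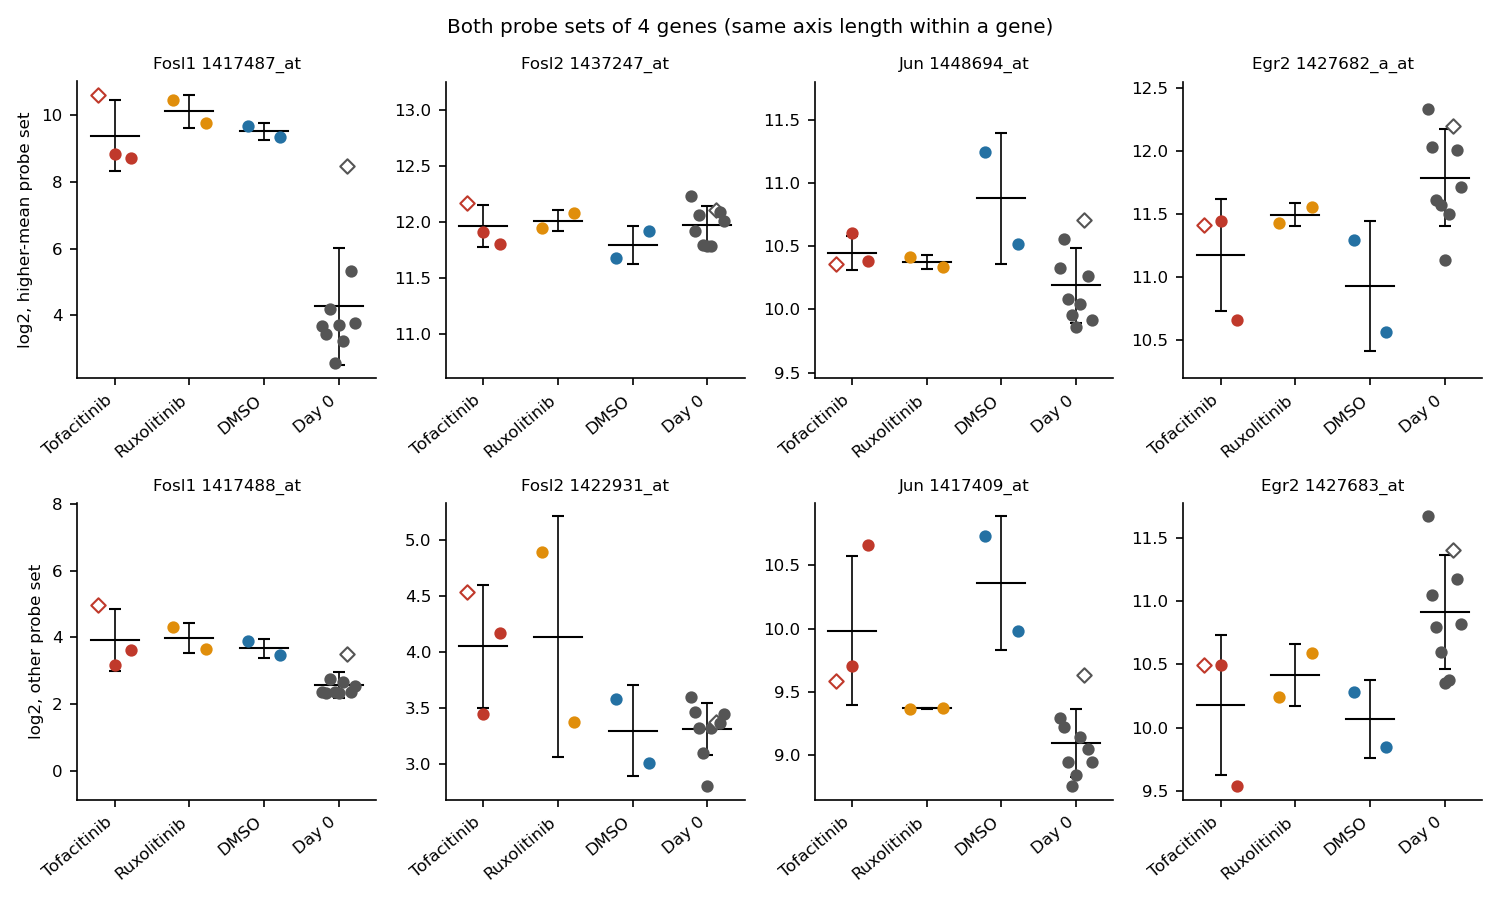
Both probe sets of Fosl1, Fosl2, Jun and Egr2, with the probe set of higher mean above and the other below, as log2 level per array by group (bars are means, whiskers SD, open diamonds mouse 7; the axes of a gene have the same length but different origins). The probe sets of Egr2 show the same pattern, those of Fosl1 the same direction with different size, and those of Fosl2 differ.

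Among the Jun proteins, Jun (c-Jun, the strongest transactivator of the family) reached its highest level in a DMSO array. Its levels were 10.36, 10.60 and 10.38 with tofacitinib, 10.41 and 10.33 with ruxolitinib and 11.24 and 10.51 with DMSO, against 9.86 to 10.71 at day 0 (median 10.08). Jun rose with DMSO by 0.68 ± 0.21 (adjusted p = 0.0164, arrays overlapping) and did not pass with tofacitinib (0.25 ± 0.18, adjusted p = 0.267) or ruxolitinib (0.20 ± 0.21, adjusted p = 0.478). A fixed mouse block gave a DMSO difference of 0.56 (adjusted p = 0.106). The second probe set of Jun read 9.59, 9.71 and 10.66 with tofacitinib, 9.37 and 9.37 with ruxolitinib and 10.73 and 9.98 with DMSO, against 8.75 to 9.64 at day 0. On it Jun rose by 1.27 with DMSO (adjusted p = 0.00152) and by 0.89 with tofacitinib (adjusted p = 0.00548), so the tofacitinib call depends on the probe set.

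Jund, which is present in resting cells and is little induced by growth factors, had a small upward difference. Its levels were 12.48, 12.24 and 12.51 with tofacitinib, 12.42 and 12.07 with ruxolitinib and 12.39 and 12.47 with DMSO, against 11.83 to 12.28 at day 0. The DMSO arrays lay above every day-0 array, which was found for 21.6% of all genes, and the inhibitor arrays overlapped the day-0 arrays. It rose by 0.31 ± 0.12 with tofacitinib (adjusted p = 0.0383) and by 0.35 ± 0.14 with DMSO (adjusted p = 0.0451), and did not pass with ruxolitinib (0.17 ± 0.14, adjusted p = 0.355). Neither rise passed under the fixed mouse block (0.18, adjusted p = 0.390, with tofacitinib and 0.40, adjusted p = 0.146, with DMSO). Within mice Jund was higher at day 5 in 7 of 7, by 0.01 to 0.56.

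Junb, a Jun protein that can oppose Jun, did not pass in any comparison with day 0. Its levels were 6.45, 6.03 and 5.32 with tofacitinib, 5.76 and 5.55 with ruxolitinib and 5.49 and 5.49 with DMSO, against 5.11 to 6.16 at day 0. The differences were 0.42 ± 0.22 (adjusted p = 0.127), 0.20 ± 0.26 (adjusted p = 0.568) and 0.02 ± 0.26 (adjusted p = 0.944) with tofacitinib, ruxolitinib and DMSO. Without the day-0 array of mouse 7 the tofacitinib difference was 0.50 (adjusted p = 0.0530).

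Atf3, a stress-induced ATF protein that pairs with Jun proteins, had after Fosl1 and Fosb the widest range of levels. It stood at 9.49, 8.79 and 9.16 with tofacitinib, 9.15 and 8.21 with ruxolitinib and 10.70 and 8.12 with DMSO, against 4.64 to 10.09 at day 0 (median 6.49). All 7 day-5 arrays lay above 8 of the 9 day-0 arrays, the exception being mouse 7. Atf3 rose by 2.37 ± 0.80 with tofacitinib (adjusted p = 0.0238, 5.19-fold) and by 2.71 ± 0.95 with DMSO (adjusted p = 0.0271, 6.55-fold). With ruxolitinib the difference was 2.05 ± 0.95 (adjusted p = 0.106), and 2.44 without the day-0 array of mouse 7 (adjusted p = 0.0107), where the tofacitinib and DMSO differences were 2.88 and 3.07. Under the fixed mouse block the differences were 1.63 with tofacitinib (adjusted p = 0.108) and 2.60 with DMSO (adjusted p = 0.0594), and neither passed. Within mice Atf3 was higher at day 5 in 6 of 7, by 1.62 to 3.61, and lower by 0.61 in mouse 7.

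Egr2 (Krox-20, a zinc finger factor with a known role in hair follicles) moved the other way. Its levels were 11.41, 11.45 and 10.66 with tofacitinib, 11.43 and 11.56 with ruxolitinib and 11.29 and 10.56 with DMSO, against 11.13 to 12.34 at day 0 (median 11.71). Egr2 fell by 0.63 ± 0.23 with tofacitinib (adjusted p = 0.0361) and by 0.86 ± 0.28 with DMSO (adjusted p = 0.0178), and with ruxolitinib the difference was -0.27 ± 0.28 (adjusted p = 0.467). Both falls passed again under the fixed mouse block (-0.80, adjusted p = 0.0104, with tofacitinib and -0.89, adjusted p = 0.0180, with DMSO). Without the day-0 array of mouse 7 the tofacitinib difference was -0.58 (adjusted p = 0.0539). With the keratinocyte marker mean of each array as a covariate, chosen after seeing the data, the differences were 0.18 with tofacitinib and 0.45 with DMSO and did not pass (adjusted p = 0.861 and 0.763). On the second probe set the differences were -0.75 with tofacitinib (adjusted p = 0.0334) and -0.85 with DMSO (adjusted p = 0.0388). Within mice Egr2 was lower at day 5 in 6 of 7, by up to 1.06, and 0.06 higher in mouse 6, which had received ruxolitinib.

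Egr1, the zinc finger factor most used as a marker of immediate early induction, did not differ detectably between the days. Its levels were 12.28, 12.04 and 10.78 with tofacitinib, 12.15 and 11.45 with ruxolitinib and 11.73 and 11.53 with DMSO, against 11.01 to 12.49 at day 0. The differences from day 0 were 0.07 ± 0.31, 0.23 ± 0.37 and 0.01 ± 0.37 with tofacitinib, ruxolitinib and DMSO (adjusted p = 0.873, 0.653 and 0.992), and the 95% intervals ran from -0.78 to 1.01. In 4 of 7 mice it was higher at day 5 and in 3 lower.

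Counted together, 6 of the 10 genes passed with DMSO against day 0 (5 higher and 1 lower, Fosl1 included), where 51.1% of all 12087 genes passed in either direction, 22.2% higher and 28.9% lower. With tofacitinib 4 of 10 passed (3 higher and 1 lower), beside 50.1% of all genes, 22.7% higher and 27.4% lower. It was 1 of 10 with ruxolitinib, beside 34.0%, 12.5% higher and 21.4% lower. That gene was Fosl1, which is in all 3 counts. Its rise was known beforehand, so its calls here and below are not a test. Counted in either direction, the shares of the 10 genes were near or below those of all genes. Counted as higher calls alone, 5 of 10 with DMSO stood above the 22.2% of all genes, but Fosl1 is among them and nothing particular to the 10 is read from so few genes. The median difference of the 10 was 0.37 with tofacitinib, 0.21 with ruxolitinib and 0.52 with DMSO, where the medians of all genes were -0.02, -0.03 and -0.05. The 3 comparisons share the 9 day-0 arrays. Under the fixed mouse block 2, 2 and 2 of the 10 passed with tofacitinib, ruxolitinib and DMSO (Fosl1 in each, with Egr2, Fosb and Egr2), and without the day-0 array of mouse 7 the counts were 4, 3 and 7. Leaving out 1 day-5 array also moved them: 2 passed with DMSO without mouse 2 (Fosl1 and Egr2), 3 without mouse 3 (Fosl1, Atf3 and Jun), and 2 with tofacitinib without mouse 9 (Fosl1 and Junb). With the muscle marker mean as a covariate 1, 1 and 1 passed with tofacitinib, ruxolitinib and DMSO, and with the keratinocyte marker mean 0, 1 and 0. The ranges of these covariates did not overlap between the days, so these fits cannot separate day from makeup. With the keratinocyte covariate Fosl1 stood at 6.59 with tofacitinib and 8.19 with DMSO. Atf3 with tofacitinib stood at 2.40 with the muscle covariate (adjusted p = 0.131) and 2.97 with the keratinocyte covariate (adjusted p = 0.360). With the 3' minus 5' signal of Actb and Gapdh controls as covariate, Fosl1 stood at 4.69, 5.73 and 4.72 with tofacitinib, ruxolitinib and DMSO. Atf3 stood at 2.17, 1.89 and 2.32 there. The part of tissue makeup in these differences was not tested.

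**Figure D3:**
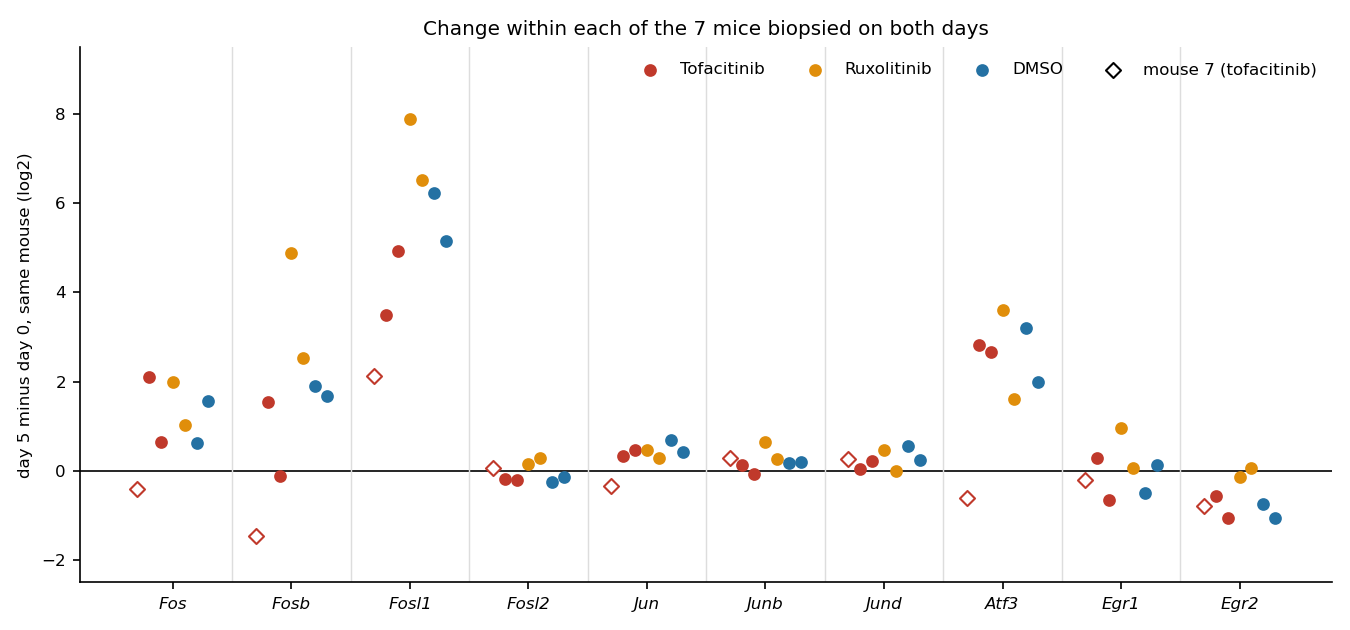
Day-5 minus day-0 log2 level of each gene within each of the 7 mice sampled on both days (vertical axis), coloured by treatment, with mouse 7 as an open diamond and a line at 0. Fosl1 lies above 0 in all 7 mice, Atf3 and Fos in 6 with mouse 7 below 0, and Egr2 lies below 0 in 6.

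The inhibitors were next compared with DMSO at day 5, which holds the day and the application fixed but not the tissue makeup. The keratinocyte marker mean was 12.27 to 12.41 with tofacitinib, 12.25 to 12.54 with ruxolitinib and 11.96 to 12.13 with DMSO. In the same order, that of melanocyte markers was 7.79 to 8.83, 8.08 to 8.54 and 4.57 to 5.67. Inhibitor and DMSO ranges also did not overlap for neutrophil and mast cell markers, but did for fibroblast, endothelial, muscle and T cell markers. Drug and makeup therefore cannot be told apart here. None of the 10 genes passed with tofacitinib against DMSO (0.165% of all genes did), with ruxolitinib against DMSO (0.521%) or with the mean of both against DMSO (0.935%). In limma 0 of the 10 also had an unadjusted p under 0.05 in any of these 3, and under the fixed mouse block 1, 1 and 0 did. With the mean of the probe sets of each gene these counts were 0, 2 and 2. With the probe set of lowest mean they were 0, 1 and 2. Fos came out lower in all 5 inhibitor arrays (10.48 to 11.86) than in both DMSO arrays (11.97 and 12.50), and its difference for the mean of both was -0.96 ± 0.75 with a 95% interval from -2.56 to 0.64 (adjusted p = 0.596). Arrays that do not overlap in this direction were found for 7.23% of all genes. Under the fixed mouse block, which compares changes from day 0 here, the direction did not hold. The Fos difference was 0.05 for the mean of both and 0.42 for ruxolitinib. Without that block it was -1.25 for ruxolitinib, and none of these passed. Of the DMSO mice, mouse 2 already had a Fos level of 11.87 at day 0. For the mean of both, Jun had the smallest p of the 10, with a difference of -0.45 ± 0.23 and an interval from -0.95 to 0.05 (adjusted p = 0.411). On the second probe set of Jun that difference was -0.68 (adjusted p = 0.305). With ruxolitinib alone it was -0.98 there (adjusted p = 0.177), beside -0.47 on the main probe set. For the mean of both, Egr2 had a difference of 0.41 ± 0.30 (-0.23 to 1.06, adjusted p = 0.575).

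For the genes with the widest spread these intervals were long. For the mean of both inhibitors against DMSO they ran from -2.20 to 2.55 for Fosl1, from -3.00 to 2.74 for Fosb and from -2.71 to 1.71 for Atf3. For Fosl1 and Fosb a 4-fold difference in either direction lay inside the interval. For Fosl2 and Jund they were short, from -0.13 to 0.52 and from -0.44 to 0.21. A p that missed the threshold does not show equal levels in either case.

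Tofacitinib and ruxolitinib are both ATP-competitive Janus kinase inhibitors that share a pyrrolopyrimidine core and differ in the groups attached to it. Their 10 differences (tofacitinib minus ruxolitinib) ran from -1.26 for Fosb, with an interval from -4.37 to 1.85, to 0.58 for Fos, with an interval from -1.15 to 2.32. None of the 10 passed, beside 0.0248% of all genes, and 0 had an unadjusted p under 0.05. For Fosl1 the difference was -1.02 (-3.60 to 1.55) and for Egr2 -0.37 (-1.07 to 0.34). Under the fixed mouse block 3 of the 10 had an unadjusted p under 0.05 and 0 passed after adjustment. The differences there were -3.71 for Fosb and -3.69 for Fosl1 (adjusted p = 0.386 each), and that of Fos turned to -0.74 (adjusted p = 0.679). No mouse received both drugs, so that fit compares changes from day 0 and not day-5 levels. The tofacitinib group holds mouse 7, high at day 0, in which Fosb changed by -1.46, Fos by -0.41 and Fosl1 by 2.13. Whether the doses of tofacitinib and ruxolitinib were matched is not known.

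**Figure D4:**
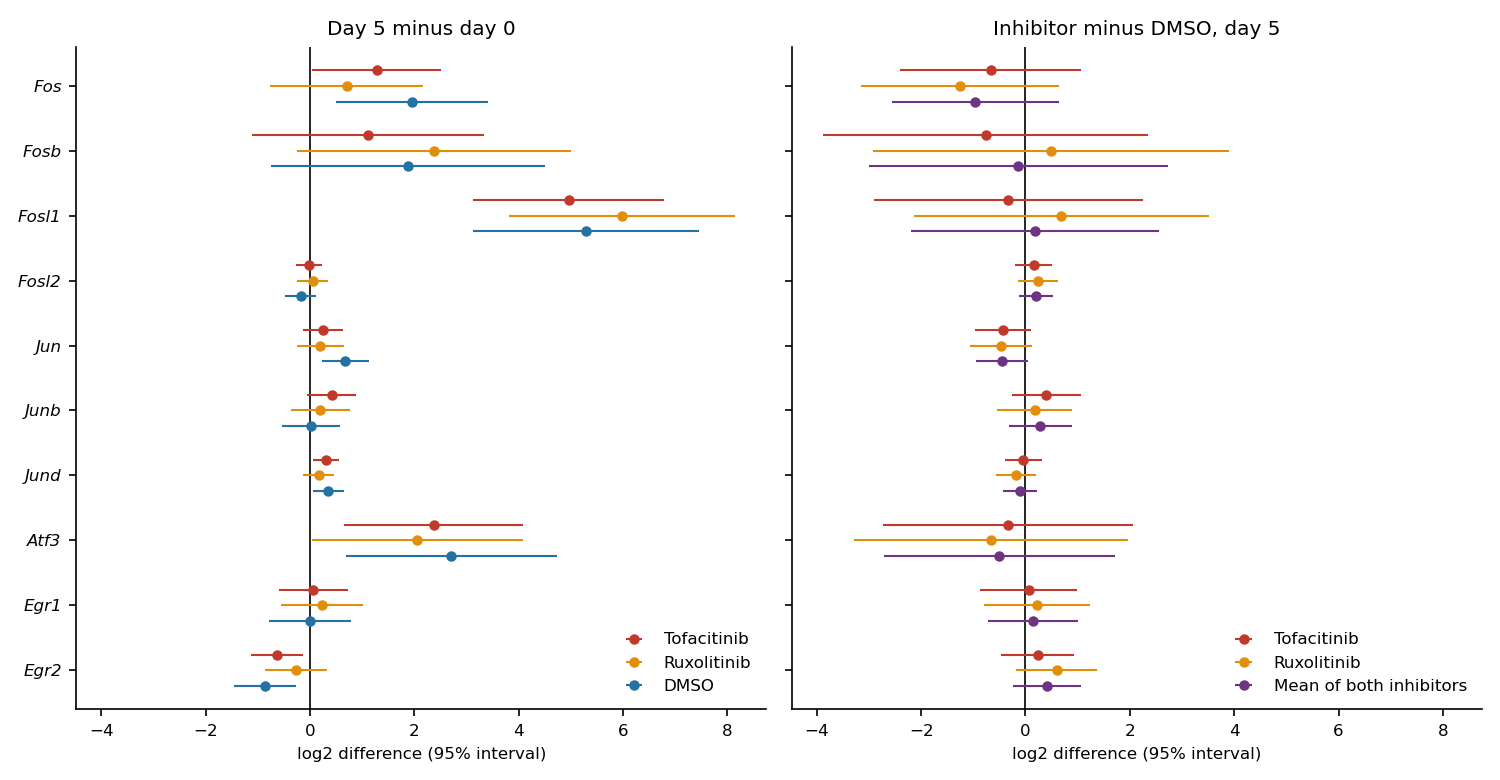
Fitted log2 differences with 95% intervals (horizontal axis) for each gene, at day 5 minus day 0 for each treatment on the left and for inhibitor minus DMSO at day 5 on the right. On the right every interval crosses 0, and those of Fosb, Fosl1 and Atf3 are the longest; on the left the 3 intervals of Fosl1 lie above 0.

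The 9 day-0 arrays showed how the genes vary in untreated skin. In the day-0 array of mouse 7, 7 of the 10 genes had their highest day-0 level (Fos, Fosb, Fosl1, Jun, Junb, Atf3 and Egr1), where 5.14% of all genes did. In that of mouse 5, 6 of the 10 had their lowest (Fos, Fosl2, Jun, Atf3, Egr1 and Egr2), where 13.4% of all genes did. The spread among these mice was wide for Fosb (SD 2.02), Fosl1 (1.74), Atf3 (1.54) and Fos (1.18), and narrow for Fosl2 and Jund (0.16 each).

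**Figure D5:**
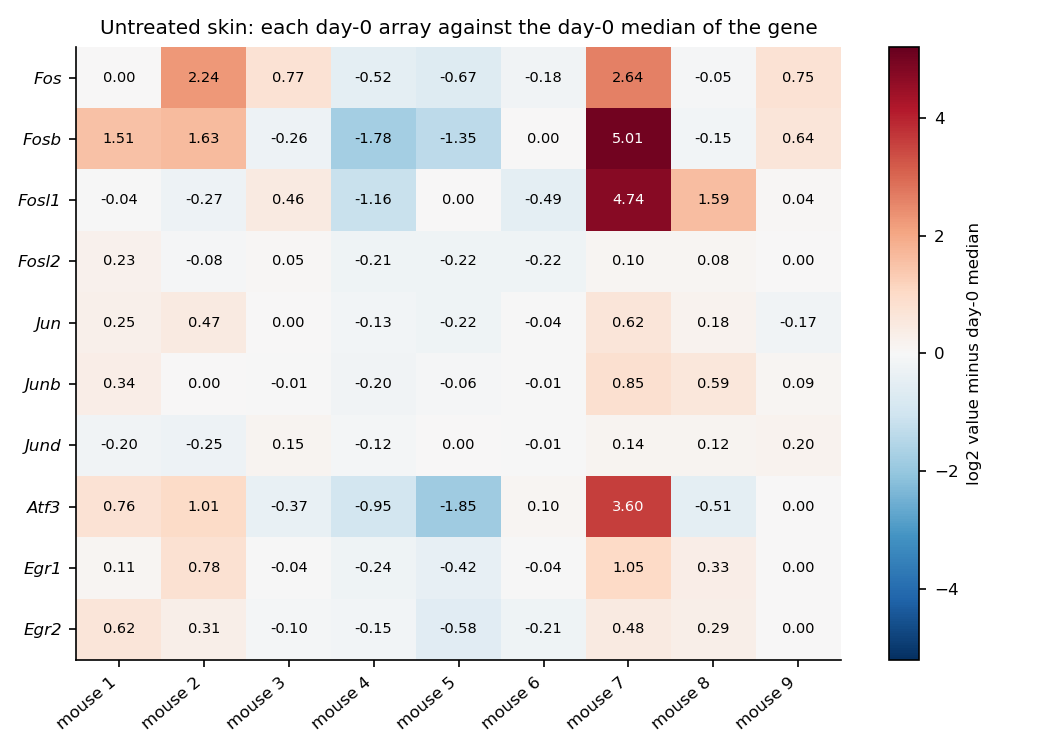
Log2 level of each gene (rows) in each day-0 array (columns) minus the day-0 median of that gene, with the value printed in each field. Mouse 7 is high in Fosb (5.01), Fosl1 (4.74), Atf3 (3.60) and Fos (2.64), mouse 2 is high in Fos (2.24), and Fosl2 and Jund stay within 0.25 of their medians.

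All 45 pairs of the 10 genes were correlated over the 9 day-0 arrays with exact permutation tests, two-sided and adjusted over the 45 pairs. By Pearson's r 13 pairs passed, by Spearman's rho 10, and 6 passed by both. The share of pairs of all genes that would pass was not computed, so nothing particular to the 10 is read from these counts. Tissue makeup varied among these arrays (fibroblast marker mean 6.02 to 8.12), and its part in the correlations was not tested. Fosb and Atf3 had the closest relation (r = 0.974, exact permutation p = 0.000105, adjusted p = 0.00298, and rho = 0.95, p = 0.000353, adjusted p = 0.0159). It held at r = 0.958 without mice 7 and 4, the arrays farthest from the median of Fosb. Jun and Egr1 followed, at r = 0.954 and rho = 0.883 (exact permutation p = 0.000132 and 0.00308, adjusted p = 0.00298 and 0.0277), and at r = 0.812 without mice 7 and 2.

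The other 4 pairs that passed by both measures were Fosb with Egr1 (r = 0.882, rho = 0.85, r = 0.744 without the 2 farthest arrays), Jun with Egr2 (r = 0.819, rho = 0.833, then 0.885), Fosl2 with Egr2 (r = 0.825, rho = 0.883, then 0.663) and Fos with Egr1 (r = 0.901, rho = 0.833, then 0.461). Their exact permutation p-values, adjusted over the 45 pairs, lay between 0.0101 and 0.0372. The relation of Fos and Egr1 rests in large part on mice 7 and 2. Of the 36 pairs without Jund all 36 had an r above 0 (0.371 to 0.974), and the 9 pairs with Jund ran from -0.202 to 0.506. Part of this rests on mouse 7. Without its day-0 array r was -0.02 for Fos with Junb and -0.04 for Fosl1 with Atf3. The other pairs without Jund stayed above 0. The arrays share their normalization.

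As a description over all 16 arrays, the gene whose level was most like that of Fos was Dusp1, a MAP kinase phosphatase (r = 0.929), followed by Ccn1 (0.926). For Fosl1 these were Nr4a3 (0.963) and Epgn (0.957), a growth factor of the EGF family, for Egr1 Zfp36 (0.923), an mRNA decay factor, and for Junb Ier2 (0.885). Fosb and Atf3 were near each other (0.886), and nearer to Fosb was Lipg (0.908). The genes nearest to Jun were Naa30 and Osbpl8 (0.917 and 0.908), to Egr2 Actr3 and Klf3 (0.960 and 0.958), to Fosl2 Gtf2b and Sub1 (0.890 and 0.882) and to Jund Dio2 and Gfod1 (0.885 and 0.883). These r values hold the difference between the days as well as that among mice.

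The genes around AP-1 were read from lists chosen by known role. Of 14 other basic leucine zipper partners 10 were tested, and 6, 4 and 5 rose with tofacitinib, ruxolitinib and DMSO against day 0, with 0, 1 and 0 lower, where 22.7%, 12.5% and 22.2% of all genes rose and 27.4%, 21.4% and 28.9% fell. Their median difference was 0.60, 0.27 and 0.69. Jdp2, which pairs with Jun and represses, rose by 1.84 ± 0.31, 2.01 ± 0.36 and 1.85 ± 0.36 (adjusted p = 0.000277, 0.000795 and 0.000872). Maff, a small Maf protein, rose by 2.39 ± 0.39, 2.02 ± 0.46 and 2.29 ± 0.46, Mafk by 0.95 ± 0.18, 0.74 ± 0.21 and 1.08 ± 0.21, and Atf4, the factor of the integrated stress response, by 0.84 ± 0.12, 0.55 ± 0.14 and 0.81 ± 0.14.

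Of 24 other immediate early genes 23 were tested. With tofacitinib 9 rose and 0 fell, with ruxolitinib 7 rose and 1 fell, and with DMSO 8 rose and 0 fell, at medians of 0.51, 0.40 and 0.34. Over all genes 22.7% rose and 27.4% fell with tofacitinib, 12.5% and 21.4% with ruxolitinib and 22.2% and 28.9% with DMSO. Nr4a3, named above for its day-0 level in mouse 7, had levels of 11.46, 10.27 and 10.41 with tofacitinib, 11.22 and 10.35 with ruxolitinib and 11.83 and 10.62 with DMSO, against 5.55 to 10.08 at day 0. Every day-5 array lay above every day-0 array, as for Fosl1. Taken group by group, this was found for 12.9%, 17.1% and 21.6% of all genes with tofacitinib, ruxolitinib and DMSO. Nr4a3 rose by 3.75 ± 0.72, 3.94 ± 0.85 and 4.46 ± 0.85 (adjusted p = 0.000809, 0.00276 and 0.000737 with tofacitinib, ruxolitinib and DMSO), and Nr4a2 by 2.53 ± 0.39, 3.06 ± 0.45 and 2.55 ± 0.45. None of the 23 passed in any comparison of an inhibitor with DMSO, and the smallest p was that of Srf, whose protein binds the CArG box (-0.62 ± 0.16 for the mean of both, adjusted p = 0.0924).

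Among MAP kinases and their feedback genes calls were found in both directions, as among all genes. Of 13 MAP kinase genes tested, 3 rose and 3 fell with tofacitinib, 3 rose and 1 fell with ruxolitinib, and 6 rose and 3 fell with DMSO, beside the shares of all genes of 22.7% and 27.4%, 12.5% and 21.4%, and 22.2% and 28.9%. Mapk8 (JNK1, a kinase of Jun) rose by 0.56 ± 0.11, 0.39 ± 0.13 and 0.73 ± 0.13. Mapk13 (p38 delta) fell by 0.62 ± 0.23 with tofacitinib and by 1.85 ± 0.27 with DMSO, and stood at -0.72 ± 0.27 with ruxolitinib (adjusted p = 0.0521). Of 12 feedback genes 3 rose and 2 fell with tofacitinib, 4 rose and 0 fell with ruxolitinib and 4 rose and 2 fell with DMSO. Dusp8, a phosphatase of JNK and p38, rose by 1.72 ± 0.33, 1.61 ± 0.38 and 2.36 ± 0.38, and Spred2, an inhibitor of Ras signalling, fell by 0.68 ± 0.17 with tofacitinib and by 1.17 ± 0.20 with DMSO. Nab1, a corepressor of Egr proteins, fell by 1.20 ± 0.40 with DMSO (adjusted p = 0.0208) and did not pass with the inhibitors, and Nab2 did not pass in any of the 3.

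Of 17 textbook targets of AP-1, 14 were tested, and 6 rose and 3 fell with tofacitinib, 4 rose and 3 fell with ruxolitinib and 7 rose and 3 fell with DMSO. The shares of all genes that rose and fell were 22.7% and 27.4%, 12.5% and 21.4%, and 22.2% and 28.9%, and the list was not tested against them. Of the lists described by role here, this one held the single gene that passed between inhibitors and DMSO. Mmp10, a matrix-degrading stromelysin, had levels of 6.06, 4.38 and 6.18 with tofacitinib, 4.63 and 4.15 with ruxolitinib and 8.76 and 8.19 with DMSO, against 2.74 to 4.44 at day 0. All 5 inhibitor arrays lay below both DMSO arrays, which was found for 7.23% of all genes. The mean of both inhibitors was 3.51 ± 0.54 lower (a difference of -3.51, adjusted p = 0.00823). Against DMSO the ruxolitinib difference was -4.03 ± 0.65 (adjusted p = 0.0180) and the tofacitinib difference -2.99 ± 0.59 (adjusted p = 0.0623). Under the fixed mouse block 0 of 12087 genes passed in these comparisons, so the calls of Mmp10 are lost there. No mouse received both DMSO and an inhibitor, so that fit compares changes from day 0 and not day-5 levels. It also spends degrees of freedom on each mouse, so a call lost there does not show equal levels. No AP-1 subunit passed in the same comparisons, and for Mmp3, another stromelysin, the difference was -1.59 ± 0.42 (adjusted p = 0.0869).

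Feedback genes of STAT signalling, which Janus kinases drive, were read on the same arrays. Cish fell against day 0 in every group, by 1.75 ± 0.38, 2.33 ± 0.45 and 2.07 ± 0.45 with tofacitinib, ruxolitinib and DMSO. Socs3 fell by 1.81 ± 0.25 with tofacitinib and 1.85 ± 0.29 with ruxolitinib and stood at -0.43 ± 0.29 with DMSO (adjusted p = 0.235). Against DMSO the Socs3 difference for the mean of both inhibitors was -1.40 ± 0.32 (adjusted p = 0.0550). None of the 4 STAT feedback genes tested passed against DMSO.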

How the data were processed

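The authors deposited a log2 level for every probe set, computed with GCRMA per the submitters' processing notes. Neither the version nor a joint normalization of the 16 arrays is stated in the sources used here. Per the labels' protocols, RNA came from flash-frozen whole skin and was amplified before biotin labelling. Groups came from the labels only. Of 45101 probe sets, 34958 had 1 gene symbol, 932 had several and 9211 were unnamed here, and 20992 of those with 1 symbol exceeded log2 4 in at least 2 arrays. The 10 genes have 15 probe sets, of which 14 were kept.

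The test was limma 3.58.1 (R 4.3.3) on all 16 arrays with 1 mean per group, in which the arrays of a mouse were a random block (consensus correlation 0.0982 by duplicateCorrelation, 12 residual degrees of freedom and 2.86 prior ones). Benjamini-Hochberg adjustment ran over 12087 genes within each of 7 comparisons, with a threshold of 0.05. The fit weighs arrays of 1 mouse, so its differences can depart slightly from those of group means. The mouse as a fixed block was an alternative: same-numbered arrays come from the same mouse per the labels, although their deviations from group means correlated above 0.1 in only 2 of 7 pairs. In simulated data of the same size 94% of 4-fold and 50% of 2-fold changes were recovered for DMSO against day 0. The simulation had no correlation between arrays of a mouse and changed only a small part of the genes. It did not cover the comparisons of inhibitors with DMSO, and genes with a wide spread would be recovered less often. The members, the other gene lists, the tests and the named-gene rule (from each other list the 4 smallest p with DMSO against day 0 and the 2 smallest for inhibitors against DMSO, of which a part is printed) were chosen with earlier results of these data known.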

Additional observations from a re-analysis of the deposited data

Results flagged for a closer look

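The day-0 array of mouse 7 lay farther from its neighbours than Dixon's 95% criterion allows in 3 of 15 probe sets tested over the 9 day-0 arrays: Fosb (9.61), the main probe set of Fosl1 (8.47) and its second probe set (3.51). By chance about 1 in 20 such groups is marked, and the 2 Fosl1 probe sets are not independent.

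Genes outside the 10 passed between inhibitor and DMSO skin at day 5, and their part in the levels of the 10 was not tested. Among melanocyte markers Pmel was higher by 3.09 with tofacitinib, 3.13 with ruxolitinib and 3.11 for the mean of both, Tyrp1 by 3.11, 3.42 and 3.27, and Dct by 2.76 for the mean of both. Krt1, the suprabasal keratin, was higher by 0.68 for the mean of both. Mmp10 was lower, with differences of -4.03 for ruxolitinib and -3.51 for the mean of both against DMSO. All are log2 differences from limma past an adjusted p of 0.05, with 3 or 2 inhibitor arrays against 2 DMSO arrays. Under the fixed mouse block, which compares changes from day 0 and spends degrees of freedom on each mouse, 0 genes passed in these comparisons.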

How the results depend on the processing

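The differences of the 10 genes were recomputed in 28 settings, 1960 values in all. On 1883 the call was unchanged, 61 lost it, 13 gained it and 3 reversed, and 101 of the 1883 changed sign without passing in either fit. Most of the 1883 passed neither in the main fit nor in the alternative, so this share does not measure how stable the calls were. The count of members past the threshold was 4, 1 and 6 with tofacitinib, ruxolitinib and DMSO against day 0, with Fosl1 included in each. It became 2, 2 and 2 with the mouse as a fixed replicate block. It was 1, 1 and 1 with muscle markers as a covariate, and again 1, 1 and 1 with the 3' minus 5' signal as a covariate. Leaving out 1 array at a time gave 2 to 4, 1 to 3 and 2 to 7. Of settings chosen after seeing the data, leaving out both arrays of mouse 7 gave 4, 3 and 7, and a keratinocyte marker covariate gave 0, 1 and 0. With that covariate, Egr2 turned to 0.18 with tofacitinib (adjusted p = 0.861) and 0.45 with DMSO (adjusted p = 0.763), and on the dimmer probe set Fosl2 turned to 0.73 with tofacitinib. The cause was not tested. Of the calls lost, Atf3 with DMSO stood at 2.71 without a covariate and at 2.77, 2.32 and 3.78 with the muscle, 3' minus 5' and keratinocyte covariates. No member passed between inhibitors and DMSO, or between tofacitinib and ruxolitinib, in any setting. Over all genes, 6055, 4104 and 6178 passed with tofacitinib, ruxolitinib and DMSO against day 0, and 352, 1220 and 74 with the keratinocyte covariate; against DMSO, 20, 63 and 113 passed with tofacitinib, ruxolitinib and both, and 0, 0 and 0 with the fixed block. With 2 or 3 arrays per treatment, the 95% intervals of Fosb, Fosl1 and Atf3 for inhibitors against DMSO included 4-fold lower levels.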
